A study of Mus musculus with 15 samples.

Results

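Expression of 10 lysosomal protease genes was followed in the podocyte fraction of mouse kidney. They were the cathepsins Ctsa, Ctsb, Ctsc, Ctsd, Ctsh, Ctsk, Ctsl, Ctss and Ctsz and the gene of legumain, Lgmn. They were chosen by name, and all 10 were found by their Ensembl identifiers among the 46078 genes of the count table. The mice were male C57BL/6J. The young group was 4 months old and uninjected (n = 5 libraries). Both aged groups were 21 months old and received weekly intraperitoneal antibody at 12 mg/kg, which the protocol gives as 8 weeks of injections and the titles of the anti-PD-1 samples as 47 days. The aged IgG2a group received the isotype control 2A3 (n = 4), and the aged aPD1ab group received the anti-PD-1 antibody RMP1-14 (n = 4). The young mice carried no injection, so age and antibody injection cannot be told apart in either comparison of aged with young mice. The labels hold 5 mice per group. Of the table's columns, 13 were tied to a group by their numbers, which are printed beside points in a figure of the study. The sample titles do not hold these numbers, so the tie could not be checked against them. Replicate numbers here are names that pair nothing.

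The libraries held 19912969 to 32717100 counted reads, and single members had between 8 and 56439 reads in a library. The sort used nephrin antibodies on digested cortex, and podocyte markers were present in all 13 libraries, but so were markers of other cells. The 9 podocyte markers summed to 885 to 1435 CPM (read counts scaled to each library's TMM-adjusted total) in young, 528 to 727 CPM in aged IgG2a and 270 to 867 CPM in aged aPD1ab libraries. The 10 macrophage markers summed to 1509 to 2665 CPM in young libraries. They stood at 2154 CPM in aged IgG2a replicate 1, at 5158 to 7004 CPM in the other 3 aged IgG2a libraries and at 1573 to 3832 CPM in aged aPD1ab libraries. The 9 proximal tubule markers summed to 11171 to 16879 CPM in young and 7324 to 22425 CPM in aged aPD1ab libraries, against 7902 CPM in aged IgG2a replicate 1 and 1494 to 2283 CPM in the other 3. No marker of these lists was at 0 in a group. The 5 B and plasma cell markers summed to 86.0 to 191 CPM in young, 320 to 997 CPM in aged IgG2a and 52.2 to 579 CPM in aged aPD1ab libraries. The 7 endothelial markers summed to 694 to 1043, 527 to 658 and 329 to 901 CPM, and the 5 mesangial markers to 184 to 253, 87.5 to 133 and 98.7 to 154 CPM in the same order of groups. Of the 5 B and plasma cell markers, edgeR called 1 higher in aged IgG2a than in young libraries (adjusted p under 0.05). Among all genes, 9.05% were called higher there. The median log2 difference of these 5 markers was 0.28, with 4 positive and 1 negative. The 5 loop of Henle, distal tubule and collecting duct markers summed to 6388 to 9070 CPM in young and 5638 to 10047 CPM in aged aPD1ab libraries. They stood at 13284 CPM in aged IgG2a replicate 1, the highest of all libraries, and at 5745 to 6298 CPM in the other 3. Aged IgG2a replicate 1 thus stood apart from its group in macrophage, proximal tubule and distal markers. Aged aPD1ab replicate 2 stood apart as well, at 22425 CPM of proximal tubule markers (7324 to 8635 CPM in the other 3), 52.2 CPM of B and plasma cell markers (391 to 579 CPM) and 270 CPM of podocyte markers (568 to 867 CPM). In the edgeR fits of 2 groups, log2 differences of members that use either library are given with and without it. For aged aPD1ab replicate 2 this is done where its absence changed a value by over 1.5 times or turned its sign. Other fits, those with marker covariates included, and correlations are given with all libraries only. In such a bulk fraction, fewer cells of a type and less RNA per cell cannot be told apart. Mitochondrial genes took 23.1% to 30.4% of reads in young, 29.3% to 54.9% in aged IgG2a (38.7% to 54.9% without replicate 1) and 20.4% to 38.5% in aged aPD1ab libraries. T and NK cell markers were low, at a sum of 5.25 to 28.2 CPM over all libraries. The part of podocyte, B cell, distal, endothelial and mesangial markers and of mitochondrial reads in the results was not tested.

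Cathepsins and legumain break down proteins in the acid lumen of lysosomes. Most are cysteine proteases (B, C, H, K, L, S, Z and legumain), while cathepsin D is an aspartic protease and cathepsin A a serine carboxypeptidase that also protects other lysosomal enzymes. All are made as inactive precursors. Cathepsin S is abundant in antigen-presenting cells, where it cuts the invariant chain of class II molecules. Cathepsin L does so in thymic epithelium and has been studied in podocytes as a protease in injury, while cathepsin K is best known from bone-resorbing osteoclasts. Legumain cuts after asparagine and helps to process other cathepsins. Many lysosomal genes carry an E-box that is bound by TFEB and its relatives, and many genes of myeloid cells are bound by PU.1.

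Stretches upstream of RefSeq starts are shown to let the later patterns be read beside the DNA of the genes. RefSeq windows (build GRCm38.p6) of 250 bases before to 50 after each start were found for 8 of 10 members, in 10 windows since a gene can have several RefSeq starts, and not for Ctsb and Ctsh. The 250 upstream bases are given 5′ to 3′ on the gene's strand for Ctss, Ctsc and Ctsz. Among members with a window, the levels of Ctss and Ctsc followed macrophage markers most closely. Ctsz also followed them (Pearson r = 0.81) and was called higher in both aged groups, as were Ctsa, Ctsb, Ctsk and Lgmn. Whether these letters go with the levels was not tested. Capitals mark the PU.1 letters GAGGAAGT on either strand.
Ctss (chr3:95526536-95526785, + strand): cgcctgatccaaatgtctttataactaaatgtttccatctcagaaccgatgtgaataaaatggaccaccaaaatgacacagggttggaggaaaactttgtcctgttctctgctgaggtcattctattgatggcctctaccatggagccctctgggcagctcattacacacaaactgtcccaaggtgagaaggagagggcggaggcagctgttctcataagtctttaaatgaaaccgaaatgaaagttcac
Ctsc (chr7:88277835-88278084, + strand): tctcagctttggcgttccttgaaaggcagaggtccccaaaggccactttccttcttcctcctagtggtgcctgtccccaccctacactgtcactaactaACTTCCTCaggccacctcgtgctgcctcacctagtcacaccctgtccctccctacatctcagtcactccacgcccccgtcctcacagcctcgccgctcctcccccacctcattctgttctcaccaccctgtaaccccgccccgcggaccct
Ctsz (chr2:174439040-174439289, - strand): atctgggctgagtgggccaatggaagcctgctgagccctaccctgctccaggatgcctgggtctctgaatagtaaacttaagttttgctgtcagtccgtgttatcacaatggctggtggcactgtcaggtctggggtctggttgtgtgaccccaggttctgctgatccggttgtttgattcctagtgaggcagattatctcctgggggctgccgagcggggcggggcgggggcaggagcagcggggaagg

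The PU.1 letters occurred in 2 of 10 member windows and in 3.20% of all 32851 windows. In Ctsc they began 151 bases upstream, and in Ctss they began 2 bases upstream and ran across the start, so they are not capitalised above. The E-box letters CACGTG, which read the same on both strands, were in 4 of 10 member windows, in 7.15% of all windows and in 25.4% of the 63 windows of other lysosomal hydrolase, membrane and proton pump genes. The longer palindromic CLEAR motif, which contains the E-box, was in 0 of the member windows and in 0.326% of all windows. The 5 E-boxes that lie wholly upstream of the RefSeq start of their window are shown with at most 12 bases on each side, with the E-box in capitals. By the gene bounds of GENCODE given with each member, 4 of these stretches lie inside the gene, and that of Ctsd at 245 bases lies outside it. One in Ctsa begins 5 bases after the start and is not shown.
Ctsa, 12 bases upstream (chr2:164833749-164833772, + strand): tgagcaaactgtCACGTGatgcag
Ctsd, 245 bases upstream (chr7:142388055-142388077, - strand): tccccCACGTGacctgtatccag
Ctsd, 98 bases upstream (chr7:142387908-142387937, - strand): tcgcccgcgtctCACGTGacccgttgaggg
Lgmn, 49 bases upstream (chr12:102439124-102439153, - strand): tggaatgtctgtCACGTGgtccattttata
Ctsl, 236 bases upstream (chr13:64370739-64370768, - strand): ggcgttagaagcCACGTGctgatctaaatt

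The members differed widely in level when counts were scaled by exon length. In young libraries Ctss had the highest level, at 350 ± 75.2 CPM per kilobase (SD, n = 5). Ctsd followed at 238 ± 24.8 CPM per kilobase, and the ranges of these 2 genes overlapped. Lgmn stood at 159 ± 19.6 CPM per kilobase, below every Ctsd value. Ctsb and Ctsz came next, at 115 ± 13.2 and 107 ± 17.7 CPM per kilobase, and did not differ beyond their spread. Ctsc, Ctsa, Ctsl and Ctsh formed a lower tier of overlapping neighbours between 62.1 and 40.0 CPM per kilobase. Ctsk was the lowest by far, at 0.367 ± 0.186 CPM per kilobase. Exon length is that of all annotated exons of a gene, so these levels depend on the annotation.

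The share that Ctss took of the members' sum varied between libraries. The 10 genes summed to 1163 ± 113 CPM per kilobase in young, 2176 ± 735 in aged IgG2a (2461 ± 568 without replicate 1) and 1644 ± 67.6 in aged aPD1ab libraries. Ctss made up 29.8% ± 3.99 (SD, n = 5) of the sum in young and 27.1% ± 8.16 (n = 4) in aged aPD1ab libraries. It made up 38.3% ± 9.12 (n = 4) in aged IgG2a libraries, or 42.8% ± 2.17 (n = 3) without replicate 1. Ctsl took 3.64% ± 0.524 of the sum in young, 1.44% ± 1.03 in aged IgG2a (0.931% ± 0.171 without replicate 1) and 3.22% ± 1.21 in aged aPD1ab libraries. The length-scaled ratio of Ctss to Ctsl was 6.23 to 11.8 in young and 3.93 to 17.8 in aged aPD1ab libraries. In aged IgG2a replicates 1 to 4 this ratio was 8.35, 58.3, 37.4 and 45.9. The last 3 lay above every other library, and replicate 1 lay among the young ones.

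**Figure D1:**
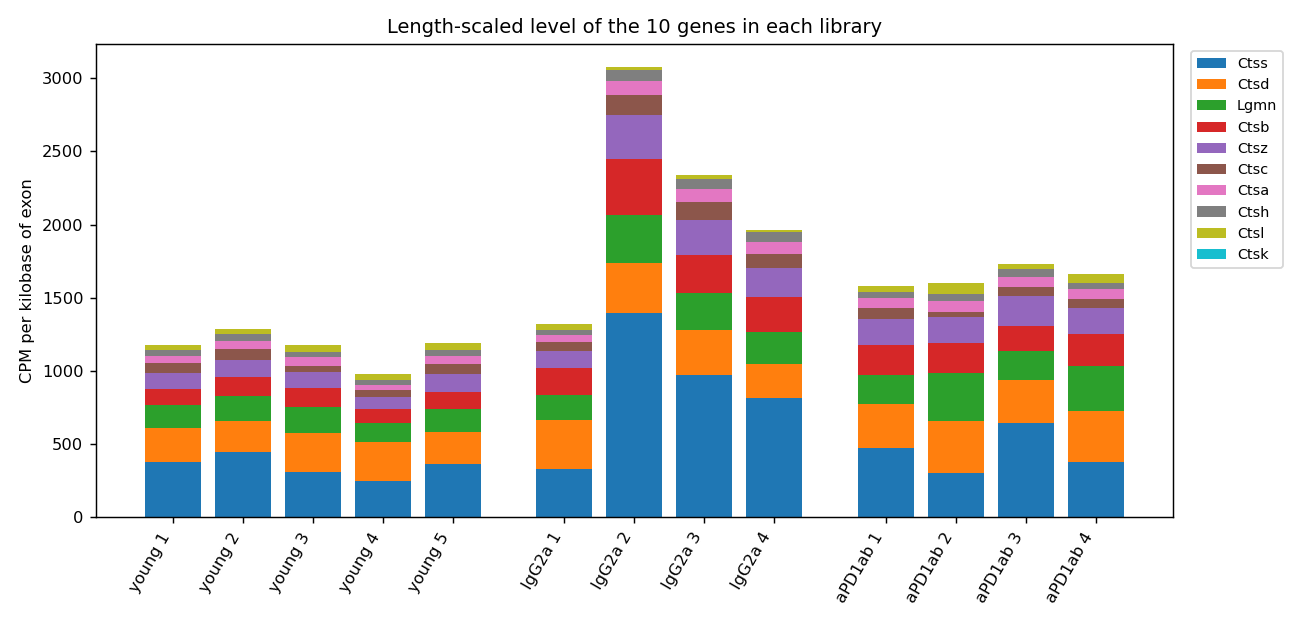
Stacked bars give the level of each of the 10 genes in CPM per kilobase of exon (vertical axis) in each of the 13 libraries. The bars of aged IgG2a replicates 2 to 4 are the tallest and the Ctss segment takes the most of them, at 42.8% on average, while replicate 1, at 1320 CPM per kilobase, is just above the highest young library at 1287.

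The first comparison asked how the podocyte fraction of aged mice given the isotype antibody differed from that of young mice. Of the 10 members, 6 rose (Ctsa, Ctsb, Ctsk, Ctss, Ctsz and Lgmn) and 0 fell at an adjusted p under 0.05 by edgeR. Across the 15953 genes tested, 9.05% were called higher and 8.38% lower. The members' median log2 fold change was 0.77, against 0.04 over all genes, and 9 of 10 were positive. Ctsb and Ctsk were higher in every aged IgG2a library than in any young one, where 4.75% of all genes were. DESeq2 and limma voom with sample quality weights called all 10 members in this comparison, with 27.9% and 46.7% of genes called. Without aged IgG2a replicate 1, 8 members rose and 1 (Ctsl) fell, and Ctsd was the remaining gene. Against that stands a larger background, since 22.1% of 16216 genes were then called higher and 23.5% lower. In these libraries 8 members lay wholly above and 1 wholly below the young range, as did 19.5% and 27.7% of genes. Leaving out other libraries cut the count of members along with the share of all genes called in either direction. The count was 1 without aged IgG2a replicate 2 or 3 (4.15% and 3.4% of genes called) and 2 without replicate 4 (6.23%). It was 2 without young replicate 1, 3 or 4 (6.56%, 5.12% and 7.09%) and 3 without young replicate 2 or 5 (8.6% and 9.54%).

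The second comparison asked what anti-PD-1 changed in aged mice. No member passed edgeR's threshold against aged IgG2a (0 of 10, with 0% of 15530 genes called), and the lowest adjusted p of a member was 0.121, for Ctsl. At an unadjusted p under 0.05 there were 3 members (Ctsc, Ctsl and Ctss) and 4341 genes, or 28.0%. The call depended on the tool: DESeq2 called 2 members (Ctsc and Ctsl, with 15.3% of genes called), limma voom with sample quality weights called 5 (Ctsc, Ctsh, Ctsk, Ctsl and Ctss, with 39.8%), and 1 edgeR fit of all 3 groups called Ctsl alone (17.5%). Without aged IgG2a replicate 1, edgeR called Ctsl higher and Ctsc, Ctsh, Ctsk and Ctss lower with aPD1ab. In that fit 17.1% of 15770 genes were higher and 13.2% lower. With that library left out, 1 member lay wholly above and 6 wholly below the aged IgG2a range, against 25% and 18.6% of genes. Without aged aPD1ab replicate 2, 0 members were called, and so were 0% of 15788 genes.

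The third comparison set aged aPD1ab beside young mice and does not use the aged IgG2a libraries. Here 6 members rose (Ctsa, Ctsb, Ctsd, Ctsk, Ctsz and Lgmn) and 0 fell, where 12.4% of 15986 genes were called higher and 9.97% lower by edgeR. All 6 were higher in each of the 4 aged aPD1ab libraries than in any young library, as were 11.3% of all genes. The members' median log2 fold change was 0.49, against 0.02 over all genes. Without aged aPD1ab replicate 2 these 6 genes were called, with 22.5% of genes called in either direction. The count was 2 without aged aPD1ab replicate 4 (14.6% of genes) and 3 without young replicate 1 or 5 (15.3% and 17.6%). Both age comparisons share the young libraries, so their calls are not independent.

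**Figure D2:**
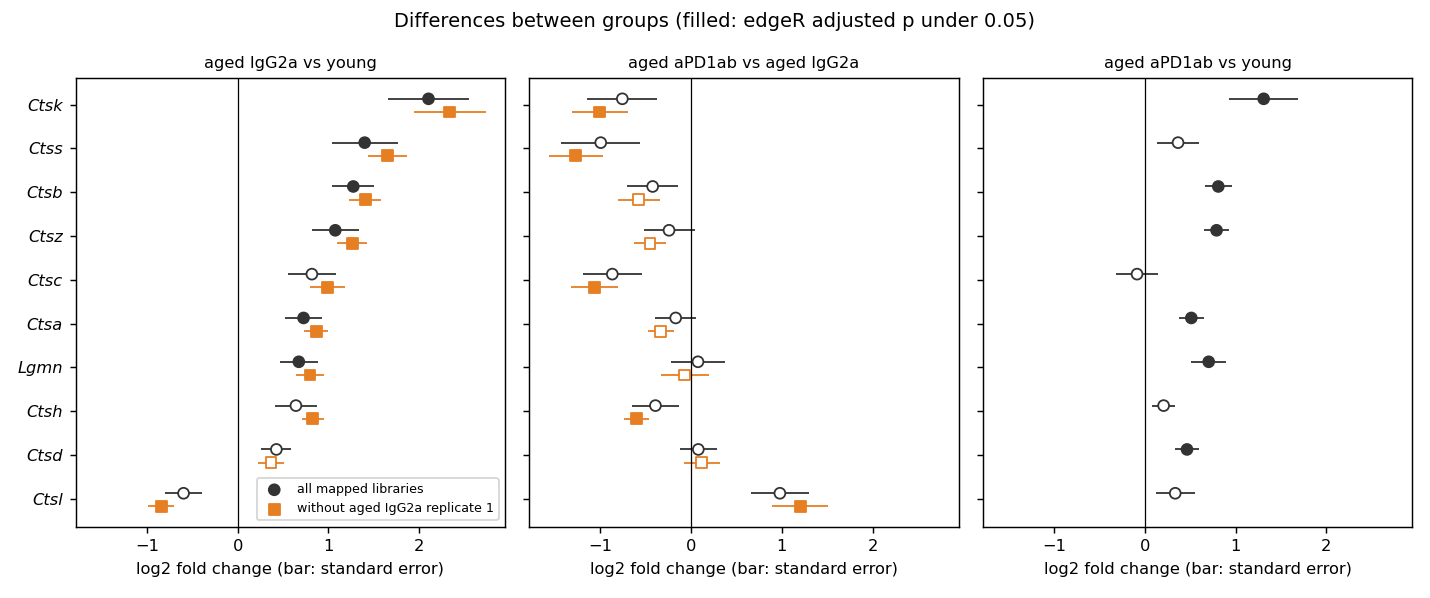
Each point is a member's log2 fold change (horizontal axis, bar: standard error) in 1 of 3 comparisons. Circles use all mapped libraries, squares leave out aged IgG2a replicate 1, and filled symbols have an edgeR adjusted p under 0.05. Of the circles 6 are filled in the first panel, 0 in the middle and 6 in the right one.

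Among the members, Ctss (ENSMUSG00000038642, chromosome 3, 95526786 to 95556403) had the widest spread in aged IgG2a libraries. Its level in young libraries was 516, 610, 418, 340 and 494 CPM. In aged IgG2a replicates 1 to 4 it was 446, 1893, 1322 and 1104 CPM, and in aged aPD1ab replicates 640, 408, 877 and 512 CPM. Aged IgG2a replicates 2 to 4 lay above all other libraries, while replicate 1 lay within the young range and the aPD1ab libraries overlapped with that range. In aged IgG2a against young the log2 difference was 1.40 ± 0.36 (SE, adjusted p = 0.0311, edgeR), or 1.66 ± 0.22 (adjusted p = 0.000168, edgeR) without replicate 1. With aPD1ab against IgG2a it was -0.997 ± 0.43 (adjusted p = 0.176, edgeR), or -1.27 ± 0.30 (adjusted p = 0.0167, edgeR) without replicate 1. Against young, aged aPD1ab gave 0.37 ± 0.23 (adjusted p = 0.279, edgeR). The lowest aPD1ab value, 408 CPM, was that of replicate 2.

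Ctsc (ENSMUSG00000030560, chromosome 7, 88278085 to 88310888) encodes the dipeptidyl peptidase that activates serine proteases of granulocytes and cytotoxic cells. Its level in young libraries was 385, 450, 275, 284 and 410 CPM. It was 350, 797, 729 and 546 CPM in aged IgG2a replicates 1 to 4 and 443, 209, 377 and 322 CPM in aged aPD1ab. As with Ctss, only aged IgG2a replicate 1 of its group overlapped with the young range. Aged IgG2a against young gave a log2 difference of 0.82 ± 0.26 and missed the threshold (adjusted p = 0.0566, edgeR), while without replicate 1 it was 0.99 ± 0.19 (adjusted p = 0.00175, edgeR). With aPD1ab against IgG2a it was -0.87 ± 0.32 (adjusted p = 0.134, edgeR), or -1.07 ± 0.26 without replicate 1 (adjusted p = 0.0185, edgeR). Aged aPD1ab and young libraries overlapped, with a log2 difference of -0.09 ± 0.23, or 0.0874 without aged aPD1ab replicate 2 (adjusted p = 0.766, edgeR), which was the lowest of all libraries.

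Ctsh (ENSMUSG00000032359, chromosome 9, 90054152 to 90076089), an aminopeptidase, had a like pattern with a smaller range. Its level was 149 to 204 CPM in young libraries and 181 to 231 CPM in aged aPD1ab. In aged IgG2a replicates 1 to 4 it was 146, 332, 306 and 285 CPM, so that replicate 1 lay below every young library. In aged IgG2a against young the log2 difference was 0.64 ± 0.23 (adjusted p = 0.0794, edgeR), or 0.83 ± 0.12 without replicate 1 (adjusted p = 0.000321, edgeR). With aPD1ab against IgG2a it was -0.39 ± 0.26 (adjusted p = 0.343, edgeR), or -0.60 ± 0.14 without replicate 1 (adjusted p = 0.0159, edgeR). Aged aPD1ab against young gave 0.21 (adjusted p = 0.252, edgeR).

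Ctsb (ENSMUSG00000021939, chromosome 14, 63122462 to 63145923) encodes a widely expressed endopeptidase and carboxypeptidase. Its level in young libraries was 658, 776, 773, 589 and 675.2 CPM. It was 1092, 2308, 1541 and 1460 CPM in aged IgG2a replicates 1 to 4 and 1273, 1235, 1004 and 1320 CPM in aged aPD1ab. No aged library of either group reached down to the young range, aged IgG2a replicate 1 included. The log2 fold change was 1.28 ± 0.23 in aged IgG2a against young (adjusted p = 0.0121, edgeR), or 1.41 ± 0.18 without replicate 1 (adjusted p = 0.000125, edgeR). It was 0.81 ± 0.15 in aged aPD1ab against young (adjusted p = 0.00633, edgeR). Between the aged groups it was -0.42 ± 0.28 (adjusted p = 0.337, edgeR), or -0.58 ± 0.23 without aged IgG2a replicate 1 (adjusted p = 0.0883, edgeR). Of its exon bases, 12.8% overlap with a gene on the other strand.

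Ctsz (ENSMUSG00000016256, chromosome 2, 174427493 to 174439039), a carboxypeptidase also called cathepsin X, was at 113 to 182 CPM in young libraries. It stood at 169, 436, 349 and 288 CPM in aged IgG2a replicates 1 to 4 and at 251, 258, 298 and 256 CPM in aged aPD1ab. Aged IgG2a replicate 1 was the only aged library in the young range. The log2 fold change against young was 1.08 ± 0.26 in aged IgG2a (adjusted p = 0.0251, edgeR), or 1.26 ± 0.17 without replicate 1 (adjusted p = 0.000179, edgeR). In aged aPD1ab it was 0.79 ± 0.14 (adjusted p = 0.00557, edgeR). With aPD1ab against IgG2a it was -0.24 (adjusted p = 0.595, edgeR), or -0.45 without aged IgG2a replicate 1 (adjusted p = 0.0803, edgeR).

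Ctsa (ENSMUSG00000017760, chromosome 2, 164832873 to 164841032) was at 176 to 265 CPM in young libraries, at 243, 437, 404.6 and 392.4 CPM in aged IgG2a replicates 1 to 4, and at 302 to 360 CPM in aged aPD1ab. All aged libraries but aged IgG2a replicate 1 lay above the young range. Its log2 fold change against young was 0.73 ± 0.20 in aged IgG2a (adjusted p = 0.0364, edgeR), or 0.87 ± 0.13 without replicate 1 (adjusted p = 0.000432, edgeR). In aged aPD1ab it was 0.51 ± 0.14 (adjusted p = 0.0235, edgeR). With aPD1ab against IgG2a it was -0.17 (adjusted p = 0.642, edgeR), or -0.33 without aged IgG2a replicate 1 (adjusted p = 0.111, edgeR). Genes on the other strand overlap 17.4% of its exon bases.

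Lgmn (ENSMUSG00000021190, chromosome 12, 102394084 to 102439813) was at 356, 391, 426, 303 and 376 CPM in young libraries. It was at 396, 758, 600 and 500 CPM in aged IgG2a replicates 1 to 4 and at 456, 760, 458 and 722 CPM in aged aPD1ab. The aPD1ab libraries fell into a lower and a higher pair, all above the young range. Its log2 fold change against young was 0.68 ± 0.21 in aged IgG2a (adjusted p = 0.0487, edgeR), or 0.80 ± 0.16 without replicate 1 (adjusted p = 0.00195, edgeR). In aged aPD1ab it was 0.70 ± 0.19 (adjusted p = 0.0252, edgeR). With aPD1ab against IgG2a it was 0.07 ± 0.29, -0.07 ± 0.27 without aged IgG2a replicate 1 and -0.0771 without aged aPD1ab replicate 2.

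Ctsd (ENSMUSG00000007891, chromosome 7, 142375911 to 142388038) was at 545, 498, 623, 616 and 510 CPM in young libraries. It was at 797, 814, 711 and 554 CPM in aged IgG2a replicates 1 to 4 and at 710, 838, 694 and 819 CPM in aged aPD1ab. For this gene aged IgG2a replicate 4, not replicate 1, lay in the young range. The log2 fold change was 0.43 ± 0.17 in aged IgG2a against young (adjusted p = 0.0949, edgeR; 0.37 ± 0.15 without replicate 1, adjusted p = 0.0619) and 0.47 ± 0.13 in aged aPD1ab against young (adjusted p = 0.0306, edgeR). Between the aged groups the log2 difference (aPD1ab against IgG2a) was 0.08 ± 0.21, 0.12 ± 0.19 without aged IgG2a replicate 1 and 0.0172 without aged aPD1ab replicate 2. In the annotation 34.4% of its exon bases are shared with another gene on the same strand, so its level depends on how shared reads were counted.

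Ctsk (ENSMUSG00000028111, chromosome 3, 95499256 to 95509362) had the largest log2 fold change of the members in both comparisons with young, from a very low level. It was at 0.912, 0.427, 0.794, 0.268 and 0.373 CPM in young libraries, at 1.08, 3.35, 2.69 and 1.94 CPM in aged IgG2a replicates 1 to 4 and at 1.44, 0.936, 1.47 and 1.57 CPM in aged aPD1ab. Each aged library lay above each young one, the closest pair at 0.936 and 0.912 CPM. The log2 fold change against young was 2.10 ± 0.44 in aged IgG2a (adjusted p = 0.0183, edgeR), or 2.34 ± 0.40 without replicate 1 (adjusted p = 0.000815, edgeR). In aged aPD1ab it was 1.31 ± 0.38 (adjusted p = 0.0323, edgeR). With aPD1ab against IgG2a it was -0.76 ± 0.39 (adjusted p = 0.226, edgeR), or -1.006 ± 0.31 without aged IgG2a replicate 1 (adjusted p = 0.0399, edgeR). Ctsk and Ctss are neighbours, with 17423 bases between them.

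Ctsl (ENSMUSG00000021477, chromosome 13, 64359337 to 64370890) had the opposite sign to the other members in aged IgG2a against young. It was at 249.0, 248, 320, 258 and 289 CPM in young libraries, at 255, 155, 169 and 115 CPM in aged IgG2a replicates 1 to 4 and at 250, 496, 236 and 384 CPM in aged aPD1ab. Aged IgG2a replicates 2 to 4 lay below all other libraries, and replicate 1 lay in the young range. Aged IgG2a against young gave a log2 difference of -0.60 ± 0.21 (adjusted p = 0.0698, edgeR), or -0.84 ± 0.15 without replicate 1 (adjusted p = 0.000945, edgeR). With aPD1ab against IgG2a it was 0.98 ± 0.32 (adjusted p = 0.121, edgeR), or 1.20 ± 0.31 without replicate 1 (adjusted p = 0.0229, edgeR). Aged aPD1ab against young gave 0.34 ± 0.22 (adjusted p = 0.287, edgeR), or 0.10 without aged aPD1ab replicate 2 (adjusted p = 0.712, edgeR), which had the highest Ctsl of all libraries. Other genes overlap 32.9% of its exon bases, part of them antisense, and the strand setting of the counting is not given in the sources used here.

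**Figure D3:**
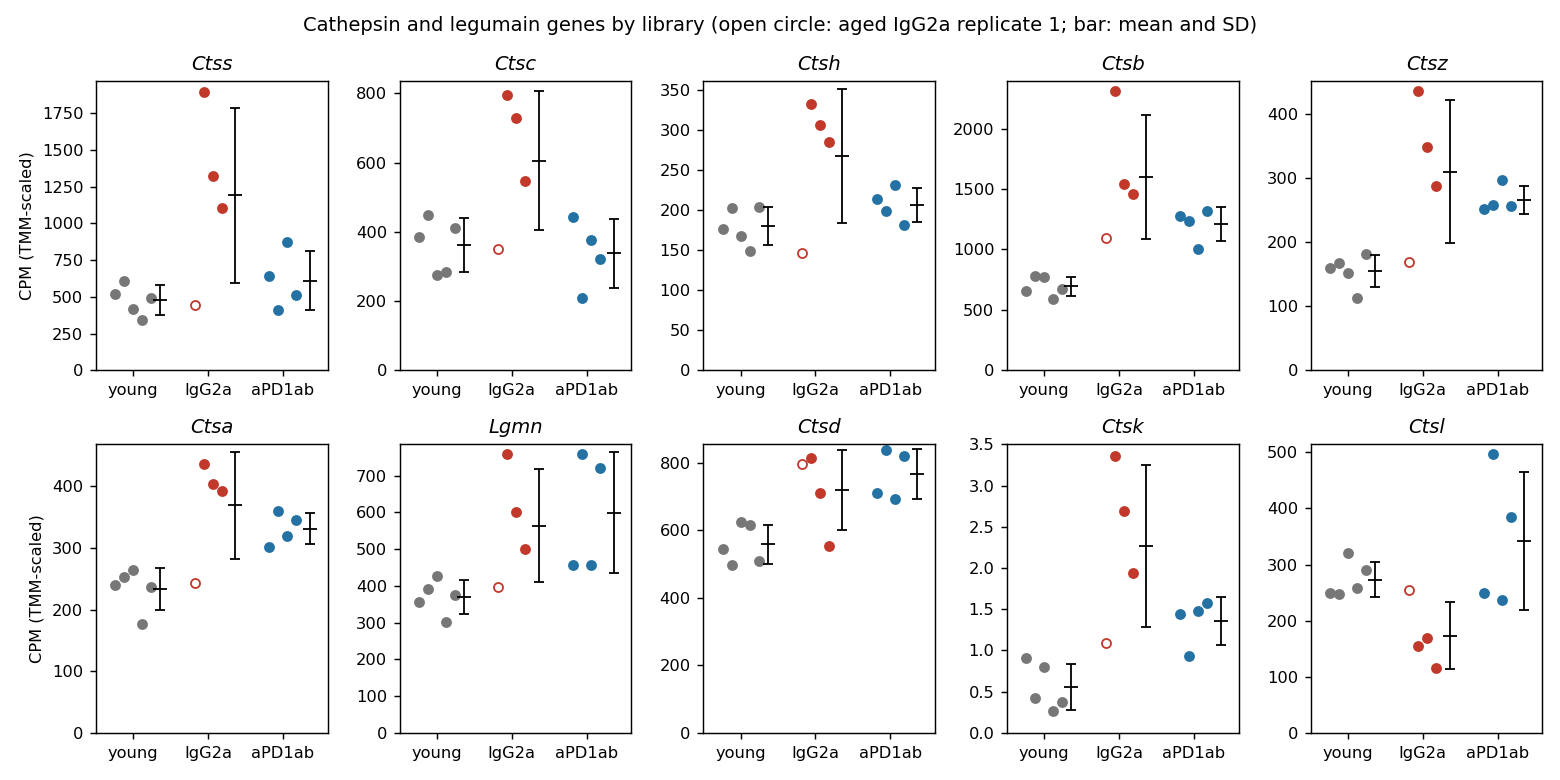
Each panel shows a member's CPM (vertical axis, from 0) in the 5 young, 4 aged IgG2a and 4 aged aPD1ab libraries, with the mean and SD to the right of each group. The open circle is aged IgG2a replicate 1, which sits with the young libraries for Ctss, Ctsc, Ctsz, Ctsa, Lgmn and Ctsl above them for Ctsb, Ctsd and Ctsk, and just below them for Ctsh.

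Macrophage and proximal tubule markers both moved with several members. Of the 10 macrophage markers, 8 were called higher in aged IgG2a than in young libraries (9.05% of all genes) and 0 in aged aPD1ab against young (12.4%). Without aged IgG2a replicate 1 all 10 were called lower with aPD1ab than with IgG2a (13.2% of all genes). All 9 proximal tubule markers and 7 of 9 podocyte markers were called lower in aged IgG2a than in young libraries (8.38% of all genes). In aged aPD1ab against young 0 and 3 were (9.97%). Without aged IgG2a replicate 1, 8 proximal tubule markers were called higher with aPD1ab than with IgG2a (17.1%). Over the 13 libraries, log2 CPM of Ctss followed the log2 marker sum with a Pearson r of 0.99, and Ctsc and Ctsh did so with 0.93 and 0.92. For Ctsz, Ctsk, Ctsa and Ctsb r was 0.81, 0.77, 0.73 and 0.72. It was 0.41 for Lgmn, 0.088 for Ctsd and -0.82 for Ctsl. With the proximal tubule marker sum, r was 0.85 for Ctsl, -0.88 for Ctss, -0.85 for Ctsc and -0.78 for Ctsh. For Ctsb, Ctsk, Ctsz and Ctsa it was -0.76, -0.76, -0.71 and -0.66 with that sum, and for Lgmn and Ctsd -0.41 and -0.21. For Lgmn and Ctsd it was further from 0 with the podocyte sum (-0.70 and -0.68) and the endothelial sum (-0.73 and -0.55) than with the macrophage sum, and for Ctsa it was -0.65 and -0.72 with these. These r values describe libraries that share their groups and their scaling to the same total.

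Members differed in single libraries and in fits that held a marker sum. Aged IgG2a replicate 1 had a macrophage marker sum of 2154 CPM, within the young range, and Ctss at 446 CPM, also within it. Its Ctsb, at 1092 CPM, was above the highest young library at 776 CPM. When the macrophage marker sum was added to the fit as a covariate, 0 members were called in aged IgG2a against young, as were 2.39% of genes, and groups and marker sums move together there. Ctss had a log2 difference of -0.07 (adjusted p = 0.864, edgeR) against 0.67 for Ctsb (adjusted p = 0.122, edgeR). In aged aPD1ab against young, where the marker sums overlapped, 6 members were called with this covariate, as were 27.4% of genes. Ctsb stayed at 0.82 (adjusted p = 0.00435, edgeR), Ctsz at 0.72 (adjusted p = 0.00388, edgeR) and Lgmn at 0.78 (adjusted p = 0.00954, edgeR). Ctsk was no longer called (1.18, adjusted p = 0.0539, edgeR), and Ctsl was called higher (0.46, adjusted p = 0.0367, edgeR). With the proximal tubule marker sum as covariate, 0 members were called in aged IgG2a against young (0.313% of genes) and 5 in aged aPD1ab against young (30.9%). In the first of these fits Ctsb had 0.43 (adjusted p = 0.561, edgeR) and Ctss -0.60 (adjusted p = 0.554, edgeR). Whether the content of any cell type accounts for these values was not tested.

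**Figure D4:**
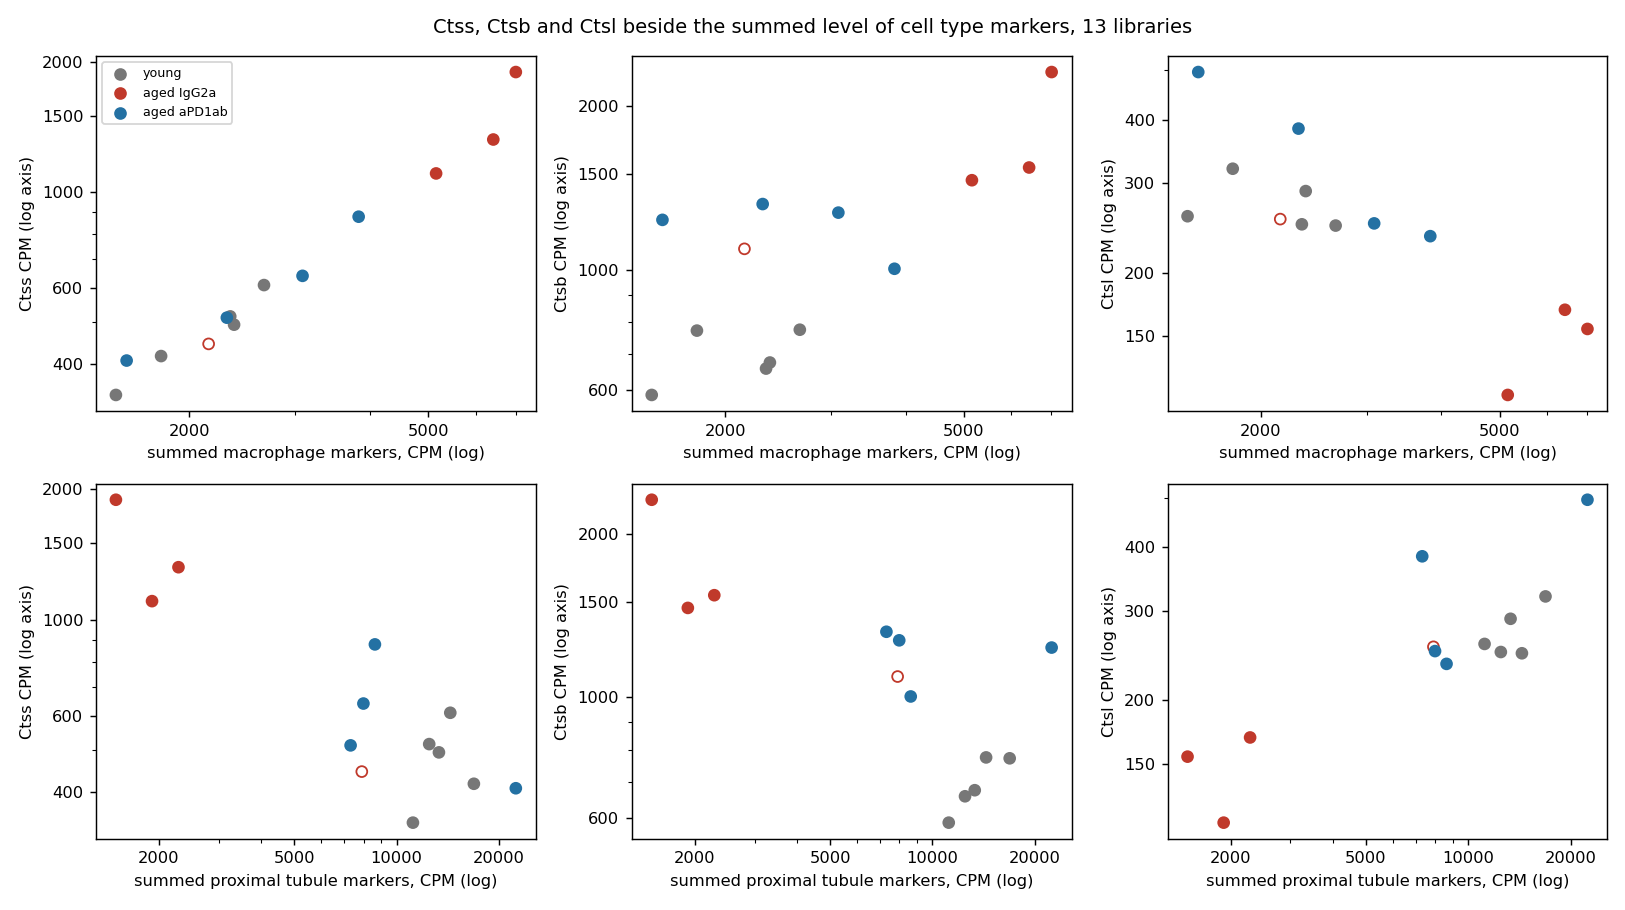
The level of Ctss, Ctsb and Ctsl in CPM (vertical, log axes) is plotted against the summed CPM of macrophage (upper row) and proximal tubule markers (lower row, log axes) in 13 libraries, with aged IgG2a replicate 1 as an open circle. Ctss follows the macrophage sum closely (r = 0.99), all aged libraries lie above the young ones for Ctsb, and Ctsl runs the other way (r = -0.82).

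Genes with the most similar profiles over the 13 libraries differed between members. For Ctss they were Rasa4, C1qa and H2-T10 (Pearson r = 0.98 each) and for Ctsc Dse, Gm10863 and Ehd4 (0.98, 0.97 and 0.97). For Ctsz they were Mvp, Npc2 and Arpc4 (0.98 each), for Ctsb Clec1b, Sat1 and Paox (0.97, 0.96 and 0.96) and for Ctsk Apoe, Dnase2a and Ccdc115 (0.95, 0.94 and 0.93). For Ctsl they were Csrnp3, C2cd2l and Fggy (0.98 each), and for Lgmn C1ra, Nop9 and Lgals1 (0.98, 0.96 and 0.94). Ctsa was nearest to Aldh3b1, Ewsr1 and Rbm3 (0.98, 0.97 and 0.97) and Ctsd to Lsm1, Gpc3 and Cxcl13 (0.91, 0.90 and 0.88). Among the members, Ctsa and Ctsz had r = 0.95 and Ctsh and Ctss 0.94, whereas Ctsc and Ctsl had -0.84.

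The cystatins, which inhibit cysteine cathepsins, were led by Cst3 and Cstb. Cstb rose in both age comparisons, by 0.74 ± 0.12 on the log2 scale in aged IgG2a (adjusted p = 0.00834, edgeR) and by 0.80 ± 0.09 in aged aPD1ab (adjusted p = 0.00264, edgeR). Cst3, the secreted cystatin C, had a log2 difference of 0.83 ± 0.27 in aged IgG2a against young (adjusted p = 0.0595, edgeR), or 1.008 ± 0.20 without replicate 1 (adjusted p = 0.00221, edgeR). Only 3 of the 7 listed inhibitors had enough reads to be tested. Of 5 further cathepsins 4 were tested. Ctse rose in aged IgG2a against young (log2 fold change 1.35 ± 0.32, adjusted p = 0.0240, edgeR), and 0 were called in aged aPD1ab against young. With all libraries, 9.05% of all genes were called higher in aged IgG2a and 12.4% in aged aPD1ab against young. With so few genes tested, these counts do not tell the aged groups apart. Without aged IgG2a replicate 1, all 3 tested inhibitors and 3 of the 4 further cathepsins were called higher in aged IgG2a. Of all genes, 22.1% were called higher in that fit.

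Other lysosomal genes were counted for comparison with the members. Of 36 other hydrolases and their cofactors, 13 were called higher and 3 lower in aged IgG2a than in young libraries, or 23 and 7 without aged IgG2a replicate 1, where 22.1% and 23.5% of all genes were. In aged aPD1ab 5 were higher and 1 lower. With all libraries, 9.05% of all genes were called higher and 8.38% lower in aged IgG2a against young. In aged aPD1ab against young 12.4% were higher and 9.97% lower. The same shares belong beside the counts of the lists that follow. Acp5, the tartrate-resistant acid phosphatase, rose in both (log2 fold changes 1.65 and 1.42). Pla2g15, a lysosomal phospholipase, had 1.45 and 0.76. Of 17 membrane proteins, 6 were called higher in aged IgG2a, Npc1 and Cln3 by 0.72 and 0.63 on the log2 scale, and Cd63 alone in aged aPD1ab (0.90). Without aged IgG2a replicate 1, 7 membrane proteins were higher and 4 lower in aged IgG2a. Of 16 proton pump subunits, 0 were called in aged IgG2a against young, or 2 higher and 5 lower without aged IgG2a replicate 1. In aged aPD1ab against young 7 were higher and 2 lower, Atp6v0b by 0.66 and Atp6v1g1 by 0.83. None of the pump subunits was called in aPD1ab against IgG2a with all libraries, and 7 were higher and 0 lower without aged IgG2a replicate 1. In that fit 4 of the 36 other hydrolases were higher and 13 lower, and 2 of the 17 membrane proteins were higher and 4 lower. Of all genes, 17.1% were higher and 13.2% lower there.

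Genes that act with or upstream of the members were counted as well. The shares of all genes called are those given beside the other hydrolases. Of 9 genes that sort hydrolases to lysosomes, 2 were called higher in aged IgG2a, or 5 higher and 2 lower without aged IgG2a replicate 1, and 2 higher and 2 lower in aged aPD1ab. Of the 4 MiT/TFE factors, which control lysosomal genes, Tfe3 alone was called with all libraries, in aged IgG2a against young (0.72 ± 0.17, adjusted p = 0.0248, edgeR), and 2 of the 4 were higher there without replicate 1. Of 8 genes of the class II pathway, in which cathepsin S acts, all 8 had a positive log2 difference in aged IgG2a against young, with a median of 0.96. With all libraries 1 was called there, Ifi30, a lysosomal thiol reductase, and 7 were without replicate 1 (median 1.16). Ifi30 was called higher in both aged groups (0.96 and 0.49 on the log2 scale). Ciita, the class II transactivator, was lower in aged aPD1ab than in young libraries (-1.08 ± 0.33, adjusted p = 0.0405, edgeR). In aPD1ab against IgG2a without aged IgG2a replicate 1, 3 sorting genes were higher and 4 lower. In the same fit 1 MiT/TFE factor was higher and 1 lower, and 0 class II genes were higher and 2 lower.

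**Figure D5:**
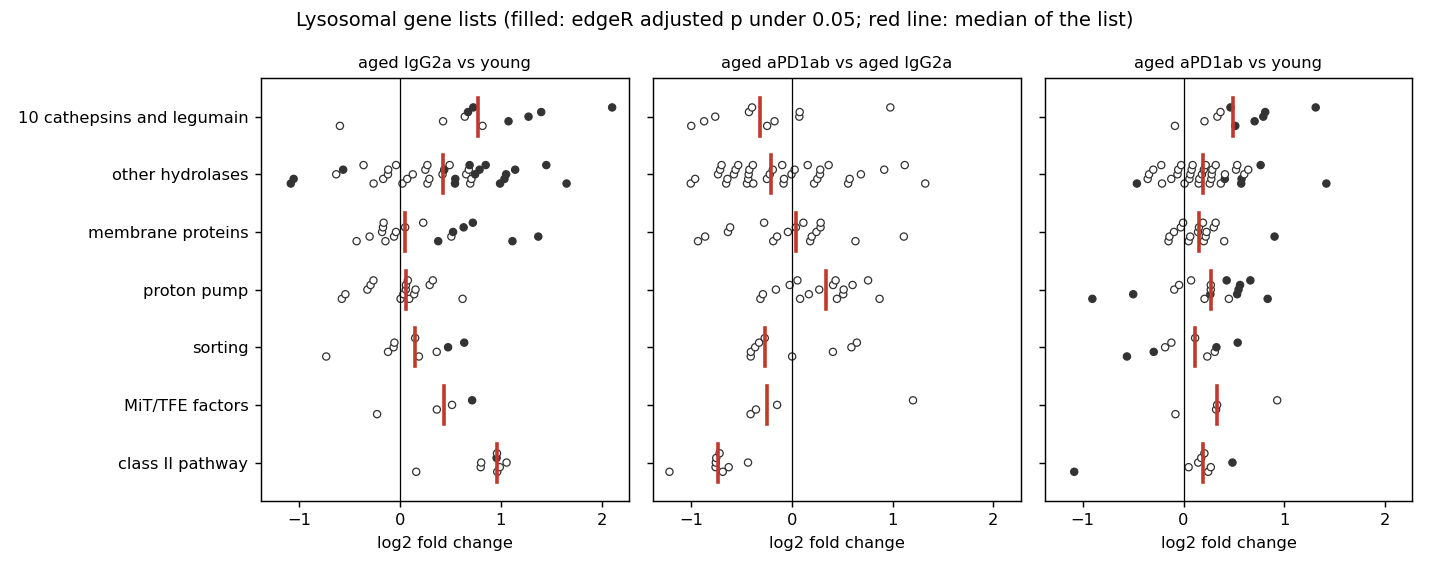
Each point is the log2 fold change (horizontal axis) of 1 tested gene in 7 lysosomal or class II lists, in 3 comparisons, filled where the edgeR adjusted p was under 0.05, with the median of each list as a red line. The members have a median of 0.77 in aged IgG2a and 0.49 in aged aPD1ab against young, and no point is filled in aPD1ab against IgG2a.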

How the data were processed

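The deposited table holds raw read counts per Ensembl gene, made by the authors from mRNA libraries; the submitters' processing notes name HISAT2, featureCounts and mm10 (GRCm38) without versions. Symbols came from GENCODE M21, for 45143 of 46078 genes. Columns were tied to groups by library numbers in a figure of the study, and 2 other columns of the table were not used. Each pair of groups was fitted in R 4.3.3 with edgeR 4.0.16 (quasi-likelihood, robust, TMM, filterByExpr) on all genes, with Benjamini-Hochberg adjustment and a threshold of 0.05. Standard errors of edgeR log2 fold changes were derived as the absolute log2 fold change divided by the square root of the test's F statistic. CPM used TMM factors over the 13 libraries. Log2 CPM had a prior count of 2 for the most similar profiles. It had no prior count for correlations with marker sums and among members. Alternatives used limma 3.58.1, DESeq2 1.42.0, other scalings and filters, marker covariates and leaving out each library. The fits were tested on simulated data.

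All 10 members were named. From other lists the 2 genes highest in level and the 2 with the smallest p in a comparison could be named, and for each member the 3 genes most correlated with it, which for Ctsh are not reported here. Members and lists were chosen with earlier results of these data known. Labels name no batch and give no cultures or animals per column, so p-values measure the spread between these libraries. Library totals are given in the report and bound counting error only.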

Additional observations from a re-analysis of the deposited data

Results flagged for a closer look

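Among 30 groups of 4 or 5 libraries (10 members in 3 groups), 1 library lay farther from the rest than a Dixon test at 95% allows, and chance gives about 1 in 20 groups. Ctsz was at 298 CPM in aged aPD1ab replicate 3, against 251 to 258 CPM in the other 3 aged aPD1ab libraries. All 4 values lay above the highest young library, at 182 CPM.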

How the results depend on the processing

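No paired analysis was possible because the columns carry no replicate numbers that groups share. Among the counts of members called, aged IgG2a against young (6) became 3 with total counts only, 10 with DESeq2, 10 with limma voom with sample quality weights and 0 with either marker covariate, and leaving out 1 library gave 1 to 9. For aged aPD1ab against aged IgG2a (0) the count was 2 with DESeq2, 5 with voom and 1 with 1 fit of all 3 groups. Leaving out 1 library gave 0 to 5, and the 5 came only without aged IgG2a replicate 1. For aged aPD1ab against young (6) it was 2 with total counts only and 1 when a change over 2-fold was also asked. Leaving out 1 library gave 2 to 6 there. The fit of all 3 groups gave 5 in aged IgG2a against young (14% of genes called) and 4 in aged aPD1ab against young (17.8%). For total counts only and the 2-fold rule, the share of all genes called is not given here. Whether members lost more calls than other genes under these 2 rules was not tested. Without TMM the median of all genes moved to -0.38, 0.24 and -0.11 in these comparisons, and the members' medians to 0.32, -0.03 and 0.37. Depth limits Ctsk, with as few as 8 reads in a library.

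Some log2 fold changes turned sign, and the cause was not tested. In aged IgG2a against young they were, with the macrophage covariate, -0.11 for Ctsc, -0.24 for Ctsh and -0.0707 for Ctss. With the proximal tubule covariate they were -0.0564 for Ctsa, -0.34 for Ctsc, -0.57 for Ctsh, 0.18 for Ctsl, -0.60 for Ctss, -0.17 for Ctsz and -0.0469 for Lgmn. In aged aPD1ab against aged IgG2a, the macrophage covariate gave 0.10 for Ctsa, -0.0233 for Ctsd, 0.14 for Ctsh, 0.0236 for Ctsk, 0.0492 for Ctss and 0.31 for Ctsz. There the proximal tubule covariate gave 0.25 for Ctsa, 0.098 for Ctsb, 0.12 for Ctsc, -0.0642 for Ctsd, 0.33 for Ctsh, 0.42 for Ctsk, 0.50 for Ctss and 0.52 for Ctsz, total counts only 0.12 for Ctsa and 0.0369 for Ctsz, and voom -0.0631 for Lgmn. Leaving out 1 library gave -0.0186 to 0.1286 for Ctsd and -0.0771 to 0.2286 for Lgmn in that comparison, and -0.2452 to 0.0874 for Ctsc in aged aPD1ab against young.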
